A study of Homo sapiens with 8 samples.

Results

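The 37 genes of the human mitochondrial chromosome were examined among the 60675 genes quantified in H9 human embryonic stem cells (hESCs). They were taken as every gene whose Ensembl identifier the GENCODE annotation places on that chromosome, and they comprise 13 mRNAs, 2 rRNAs and 22 tRNAs. H9 (WA09) is an established hESC line. It was cultured without feeder cells, in mTeSR1 medium on Matrigel, and bulk RNA of the same line was sequenced as P1 hESCs (passage 40s), P2 hESCs (passage 100s), P3 hESCs (passage 200s) and P4 hESCs (passage 300s), with 2 samples each. No agent or transgene is named for these samples, and P3 and P4 hESCs are described by the study as carrying a copy number gain that arose in culture. All 4 groups come from 1 cell line, so passage and anything else that set these cultures apart cannot be told apart. Nothing in the sources tells if replicates came from different cultures, so p-values measure only the spread between these samples, which may be technical. The libraries were made with a kit for polyadenylated mRNA that marks the strand. Total expected counts ranged from 26874899 to 38095600 per sample, with 34161086 as the median.

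Mitochondrial DNA is a small circular genome, present in many copies per cell. It is transcribed from both strands into long precursors, and the tRNAs that punctuate these precursors are cut out to release the mRNAs and rRNAs. The mRNAs encode core subunits of the respiratory chain and of ATP synthase, the rRNAs and tRNAs serve the translation of those mRNAs inside the organelle, and every other component is encoded in the nucleus. Most of the mRNAs receive a short poly(A) tail, which for some of them also completes the stop codon. In bulk RNA, fewer cells of a type and less RNA per cell cannot be told apart.

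The annotated ends of the mRNAs are shown first because the libraries were selected for poly(A). In GENCODE release 29 on GRCh38, 6 of the 13 mRNAs had a length that left an incomplete last codon, 5 of them with 1 base and MT-ND1 with 2 bases. The last 30 bases of these 6 are given 5′ to 3′ on the transcribed strand, with the bases of the incomplete codon in capitals.
MT-ND1: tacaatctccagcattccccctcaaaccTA
MT-ND2: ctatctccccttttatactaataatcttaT
MT-CO3: tgtatgtctccatctattgatgagggtctT
MT-ND3: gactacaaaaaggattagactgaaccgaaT
MT-ND4: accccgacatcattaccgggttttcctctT
MT-CYB: taattgaaaacaaaatactcaaatgggccT

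Of the other 7 mRNAs, 5 ended in TAA or TAG and 2 in AGA or AGG, shown here with that last codon in capitals. MT-CO1 lies on the plus strand, and MT-ND6 is the only mRNA on the minus strand.
MT-CO1: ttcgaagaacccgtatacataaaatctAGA
MT-ND6: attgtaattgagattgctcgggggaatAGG

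The mitochondrial genes took from 5.89% to 18.5% of all expected counts in a sample. The share was 9.84% and 18.5% for the 2 samples of P1, 6.55% and 6.72% for P2, 18.4% and 7.53% for P3, and 17.2% and 5.89% for P4. P1, P3 and P4 hESCs each had a high and a lower sample, and only the samples of P2 hESCs lay close together. The high samples, 1 each of P1, P3 and P4 hESCs, lay between 17.2% and 18.5%, and the other 5 samples were at 9.84% or less. The mean was 10.4% ± 5.62 (SD, n = 4) in P1 and P2 hESCs and 12.3% ± 6.46 (SD, n = 4) in P3 and P4 hESCs. Their difference of 1.85 percentage points was smaller than the spread within either pair of lines (two-sided exact permutation test, p = 0.857, smallest possible 0.0286). Among the 4 lines the F ratio of the share was 0.544 (exact permutation test over all arrangements, p = 0.552, smallest possible 0.00952).

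**Figure D1:**
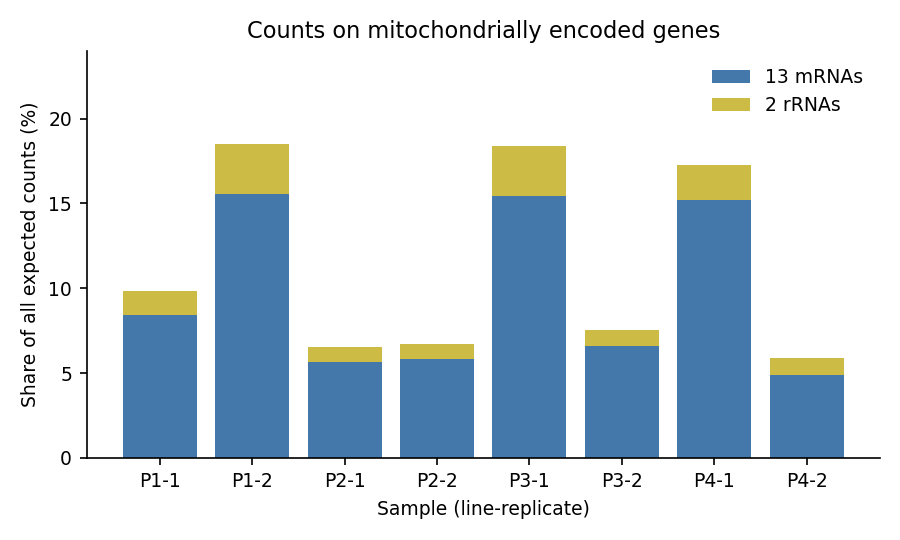
Share of all expected counts (%) on mitochondrial mRNAs (blue) and rRNAs (yellow) in each of the 8 samples, as stacked bars from 0. P1 replicate 2, P3 replicate 1 and P4 replicate 1 stand between 17.2% and 18.5%, and the other samples lie at or below 9.84%.

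Counts on the rest of the genome differed less, by up to 1.41-fold between samples, against 4.42-fold for the mitochondrial counts. The classes of mitochondrial RNA kept their order in every sample. The mRNAs held 83.2% to 88.2% of the mitochondrial counts, the rRNAs 11.8% to 16.8%, and the tRNAs 9.51 to 37.2 counts per 1000000 mitochondrial counts. The rRNA share was 14.5% and 16.2% for P1, 13.8% and 13.3% for P2, 16.0% and 12.4% for P3, and 11.8% and 16.8% for P4. It was higher in the sample with the higher mitochondrial share in P1 and P3 hESCs, and lower in that sample in P2 and P4 hESCs. The mitochondrial shares of the P2 samples were close, at 6.55% and 6.72%. P3 and P4 hESCs differed from P1 and P2 hESCs by -0.193 percentage points in the rRNA share (exact permutation test, p = 0.943) and by -1.12 tRNA counts per 1000000 mitochondrial counts (exact permutation test, p = 0.886).

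In P1, P3 and P4 hESCs the spread between replicates ran through most of the members compared rather than a few. Levels were compared as CPM (counts per 1000000 of the TMM-scaled library), for the 18 members that passed the filter on low counts: the 13 mRNAs, both rRNAs and the tRNAs MT-TQ, MT-TA and MT-TN. In P1 hESCs the 15 mRNAs and rRNAs were higher in replicate 2, by 0.62 (MT-ATP8) to 1.49 (MT-RNR1) on the log2 scale, with a median of 1.04, or 2.05-fold. In P3 hESCs they were higher in replicate 1 by 1.23 (MT-CO2) to 1.97 (MT-RNR2), with a median of 1.61, or 3.05-fold. P4 hESCs had the widest spread, with replicate 1 higher by 1.10 (MT-RNR1) to 2.32 (MT-ND6) and a median of 1.89, or 3.72-fold. In P2 hESCs the log2 ratio of replicate 2 to replicate 1 ranged from -0.20 (MT-ND4L) to 0.31 (MT-RNR1), with a median of 0.04. At least a 2-fold excess in the sample with the higher mitochondrial share was seen for 13 of the 18 members in P1 hESCs, where 4.95% of all genes tested met it. The same held for 17 of 18 members in P3 hESCs (5.43% of all genes) and 16 of 18 in P4 hESCs (5.34% of all genes). In P2 hESCs replicate 2 exceeded replicate 1 by that margin for 0 of 18 members (2.34% of all genes), and replicate 1 exceeded replicate 2 for 2 of 18, MT-TA and MT-TN (2.59% of all genes). The direction was set by the mitochondrial share, which is a sum over these same members. Their excess thus follows in part from that choice, whereas the percentages of all genes do not. These are single pairs of samples and were not tested.

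**Figure D2:**
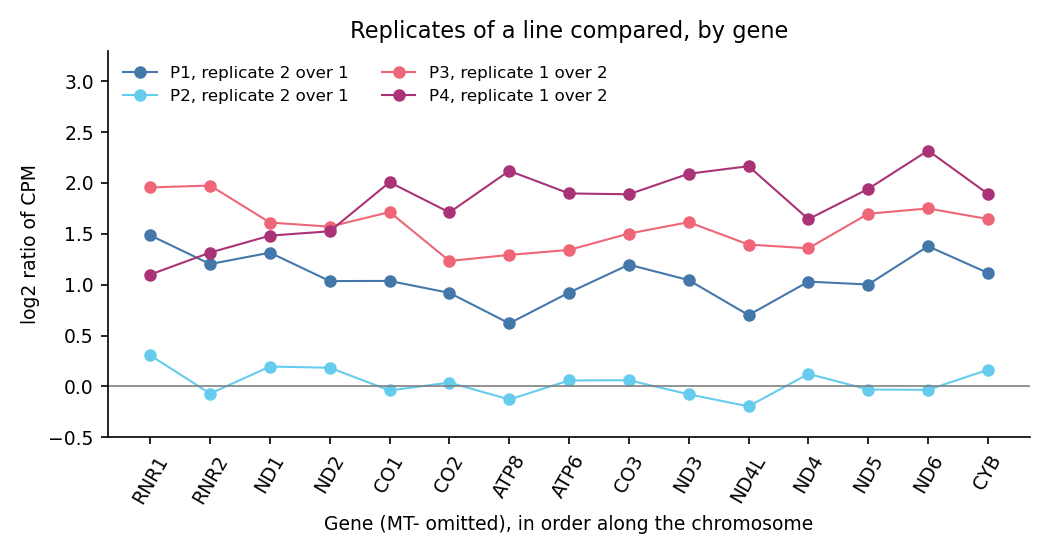
The log2 ratio of CPM between the 2 samples of each line (vertical axis) for the 13 mRNAs and 2 rRNAs in their order along the chromosome (horizontal axis), 1 line of points per hESC line. P3 and P4 hESCs lie above 1 for all 15 genes, P1 hESCs between 0.62 and 1.49, and P2 hESCs near 0.

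The rRNAs did not keep 1 place among the 15 genes in these ratios. In P3 hESCs the rRNAs, encoded first, had the widest gaps between replicates, MT-RNR2 at 1.97 and MT-RNR1 at 1.96. In P4 hESCs they had the narrowest, MT-RNR1 at 1.10 and MT-RNR2 at 1.32. MT-ND6, the mRNA of the minus strand, was at 1.38, -0.03, 1.75 and 2.32 in P1 to P4 hESCs. It had the highest ratio of the 13 mRNAs in P1, P3 and P4 hESCs, but not in P2 hESCs. The next mRNA was MT-ND1 at 1.31 in P1, MT-CO1 at 1.71 in P3 and MT-ND4L at 2.17 in P4 hESCs. MT-RNR1 exceeded MT-ND6 in P1 hESCs, and both rRNAs did in P3 hESCs. This order was not tested.

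Nuclear RNAs without a poly(A) tail were read in the same samples, as a measure of how strictly poly(A) RNA had been selected. A list of 19 of them had 21.6 and 37.1 summed CPM of all counts for P1, 61.8 and 140.9 for P2, 41.0 and 28.1 for P3, and 28.3 and 202.4 for P4. Most of this was RN7SL1 and RN7SL2, the RNA of the signal recognition particle. RN7SL1 ranged from 9.54 to 92.3 CPM and was highest in P4 replicate 2, which had the lowest mitochondrial share, and next in P2 replicate 2 at 62.7 CPM. Among the other samples with lower shares it was at 28.4 CPM in P2 replicate 1, 12.5 in P3 replicate 2 and 9.54 in P1 replicate 1, and in the 3 high samples it was between 10.7 (P4 replicate 1) and 16.0 CPM (P3 replicate 1). P3 replicate 2 thus lay within the range of the high samples, P1 replicate 1 below it and P2 replicate 1 above it. Of the list, 5 RNAs were at 0 in every sample and 3 exceeded 1 CPM in all. Of these 3, SNORD3A, a nucleolar RNA, was also highest in P4 replicate 2, at 16.1 CPM. It was next in P1 replicate 2, a high sample, at 12.6 CPM, against 2.43 in P1 replicate 1. The samples with the lowest mitochondrial shares, P4 replicate 2 and both of P2 hESCs, thus had the highest sums of the list and the highest RN7SL1. Their shares were 5.89% for P4 replicate 2, and 6.55% and 6.72% for P2 hESCs. In the other samples the sums lay between 21.6 and 41.0 CPM and did not fall as the share rose. The part of RNA selection in the mitochondrial spread was not tested.

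**Figure D3:**
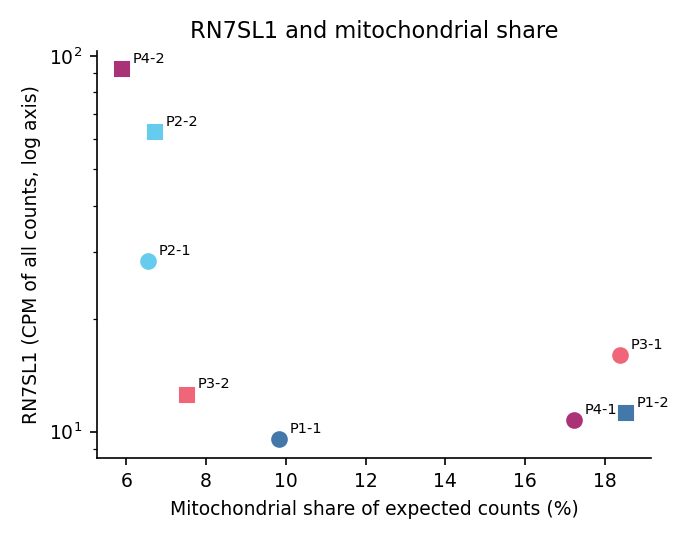
RN7SL1 (CPM of all counts, log axis) against the mitochondrial share of expected counts (%), 1 point per sample, with circles for replicate 1 and squares for replicate 2. P4 replicate 2 and P2 replicate 2 are highest in RN7SL1, at 92.3 and 62.7 CPM, with shares of 5.89% and 6.72%.

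The labelled cell type was checked in every sample. All 10 markers of pluripotent cells exceeded 1 CPM in all samples, with a summed level of 5855 to 8102 CPM. Markers of mesendoderm summed to 2.64 to 7.68 CPM, of trophectoderm to 6.18 to 16.9 CPM, of striated muscle to 2.18 to 15.3 CPM, of neuroectoderm to 667 to 1040 CPM and of mesenchyme to 772 to 1121 CPM. In the neuroectoderm and mesenchyme lists 3 of 5 genes each exceeded 1 CPM in all samples. The numbers were 0 of 8 for mesendoderm, 1 of 4 for trophectoderm and 0 of 3 for striated muscle. A sum in bulk RNA does not tell which cells expressed these genes, so it does not show that differentiated cells were present. The summed pluripotent markers were lowest in P1 replicate 2 and P3 replicate 1, the samples with the highest mitochondrial shares, at 5855 and 6486 CPM of all counts. All counts include the mitochondrial ones, so a high mitochondrial share by itself lowers the CPM of every nuclear gene on this scale. These sums alone therefore do not show whether the markers themselves were lower in P1 replicate 2 and P3 replicate 1. P4 replicate 1, with a mitochondrial share of 17.2%, was at 7327 CPM. How much of the low sums came from the share was not tested. No marker list was at 0 throughout, and their part in the mitochondrial spread was not tested.

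Complex IV dominated the mRNA counts. Its subunit genes MT-CO1, MT-CO2 and MT-CO3 held 59.3% to 63.9% of the mitochondrial mRNA counts. The 7 genes of complex I, which takes electrons from NADH, held 25.1% to 29.2%, and the ATP synthase genes MT-ATP6 and MT-ATP8 5.99% to 7.36%. MT-CYB, the cytochrome b of complex III, held 3.71% to 4.66%. The complex IV share was 59.8% and 60.2% for P1, 60.5% and 59.3% for P2, 61.5% and 60.7% for P3, and 63.9% and 62.0% for P4. Complex I was lowest in P4 hESCs, at 25.1% and 27.3%, against 28.2% to 29.2% in the other 6 samples.

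In the order of their medians, MT-CO1 took 24.2% to 30.6% of the mitochondrial counts and was first in all samples. MT-CO3 followed at 13.6% to 16.5%, then the large-subunit rRNA MT-RNR2 at 10.2% to 14.2%, MT-CO2 at 8.62% to 11.7% and MT-ND4 at 6.49% to 8.21%. MT-ND5 held 4.76% to 6.31%, MT-ATP6 4.13% to 5.0%, MT-ND2 3.80% to 4.90%, MT-ND1 2.30% to 4.47% and MT-CYB 3.24% to 3.95%. The lowest shares were those of the small-subunit rRNA MT-RNR1 (1.60% to 2.61%), MT-ND4L (1.10% to 1.52%), MT-ATP8 (0.889% to 1.44%), MT-ND3 (0.911% to 1.16%) and MT-ND6 (0.700% to 1.13%). The ranges of neighbours in this order overlapped, except between MT-CO1 and MT-CO3, MT-CO2 and MT-ND4, MT-ND4 and MT-ND5, MT-CYB and MT-RNR1, and MT-RNR1 and MT-ND4L. These shares sum to the whole, so a gene's share depends on the others, and they do not take gene length into account. MT-ND1 had the widest range, 1.94-fold from lowest to highest, and MT-ATP6 the narrowest, 1.21-fold. The mitochondrial share of all counts ranged 3.15-fold.

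The share of MT-ND1 was lowest in P4 hESCs. It was 3.81% and 4.47% for P1, 3.58% and 4.02% for P2, 3.58% and 3.57% for P3, and 2.30% and 2.85% for P4. Both P4 samples lay below the other 6, although P4 replicate 1 was among the samples with the most mitochondrial counts. MT-CO1 took 25.0% and 24.2% for P1, 26.0% and 24.8% for P2, 29.2% and 27.2% for P3, and 30.6% and 26.3% for P4. All 4 samples of P3 and P4 hESCs thus lay above all 4 of P1 and P2 hESCs, 28.3% ± 1.97 against 25.0% ± 0.731 (SD, n = 4 each). MT-CO3, MT-CYB and MT-ND1 lay below without overlap, MT-CO3 at 14.2% ± 0.605 against 15.5% ± 0.747, MT-CYB at 3.34% ± 0.125 against 3.82% ± 0.157, and MT-ND1 at 3.07% ± 0.618 against 3.97% ± 0.377 (SD, n = 4 each). For MT-CO3 the nearest samples, P3 replicate 2 at 14.83% and P2 replicate 1 at 14.84%, nearly met, and so did those for MT-ND1, P3 replicate 1 at 3.578% and P2 replicate 1 at 3.584%. The other 11 of the 15 mRNAs and rRNAs overlapped. On the CPM scale, where mitochondrial counts are set against the whole library, 0 of the 18 members tested had such groups, against 17.6% of all genes tested. These shares were read as a description, with no test.

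**Figure D4:**
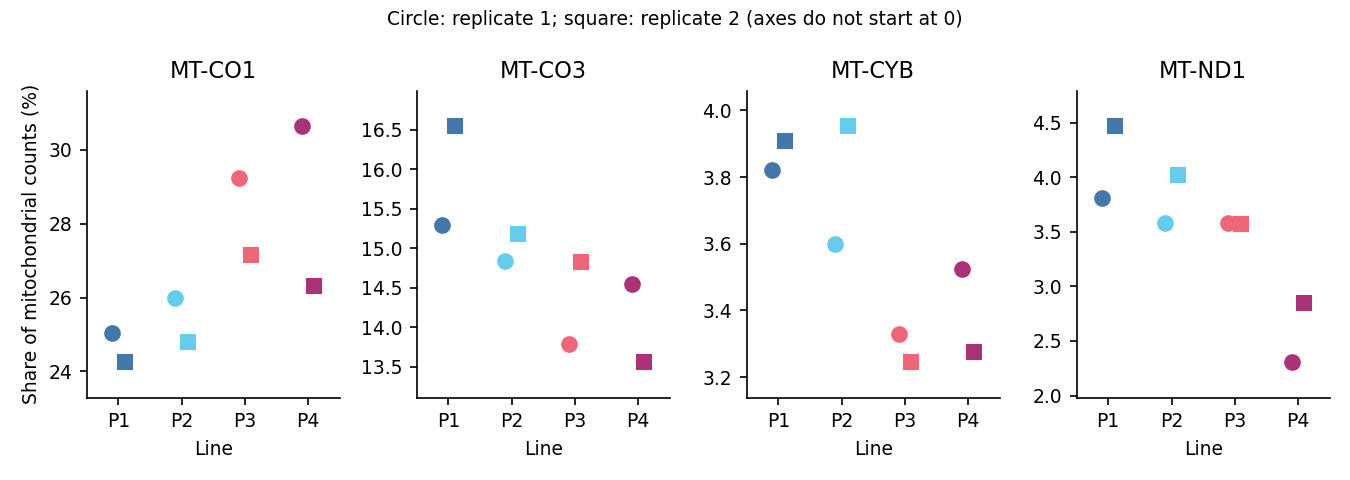
Share of mitochondrial counts (%) of MT-CO1, MT-CO3, MT-CYB and MT-ND1 in the 4 lines, 1 point per sample, on axes that do not start at 0. MT-ND1 lies at 2.30% and 2.85% in P4 hESCs and between 3.57% and 4.47% in the other lines.

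Besides MT-ND1, only MT-ND5 and MT-CO3 of the 15 mRNAs and rRNAs had both samples of 1 line beyond the other 6. With 2 samples a line such separations can arise by chance, and they were not tested. MT-ND5 was higher in both P3 samples, at 6.31% and 5.93%, than in any other sample, where it reached at most 5.30%. MT-CO3 was higher in both P1 samples, at 15.3% and 16.5%, than in the other 6, where it reached at most 15.2%. The lines overlapped in MT-ND6, which held 1.02% and 1.27% of the mRNA counts for P1, 1.01% and 0.967% for P2, 1.35% and 1.17% for P3, and 1.15% and 0.841% for P4. The difference between P3 and P4 and P1 and P2 hESCs in this share was 0.0595 percentage points (exact permutation test, p = 0.6). The ratio of MT-RNR2 to MT-RNR1 counts, from neighbouring genes of the same precursor, ranged from 5.43 (P4 replicate 2) to 7.65 (P2 replicate 1), and P3 and P4 hESCs differed from P1 and P2 hESCs by -0.226 (exact permutation test, p = 0.714). The sources do not say whether counting used the strand, so reads of MT-ND6 and of the transcript opposite it may not be separated.

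The order of levels per length depended on which length was used. RSEM divides by an effective length, which is the length left for a fragment to start in, and on this TPM scale MT-ATP8 was first in 7 of the 8 samples, with 23007 to 64894 TPM. Its effective length was 28.5 to 41.0 bases, of 207 annotated. Per annotated kilobase, MT-ATP8 had 2797 to 10302 CPM of all counts and ranked from 5 to 8, while MT-CO3 was first in 6 samples, with 10182 to 39108, and MT-CO1 in the other 2, with 10051 to 34848. MT-CO2 ranked 2 or 3, with 10105 to 28035. MT-RNR2 and MT-ATP6 came next, at medians of 6669 and 6101, and MT-RNR1 and MT-ND6 were lowest, at medians of 1768 and 1550 on the same scale. Neighbours in this order had medians that lay closer together than their spread over samples, which was over 2-fold for each of the 15 genes.

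**Figure D5:**
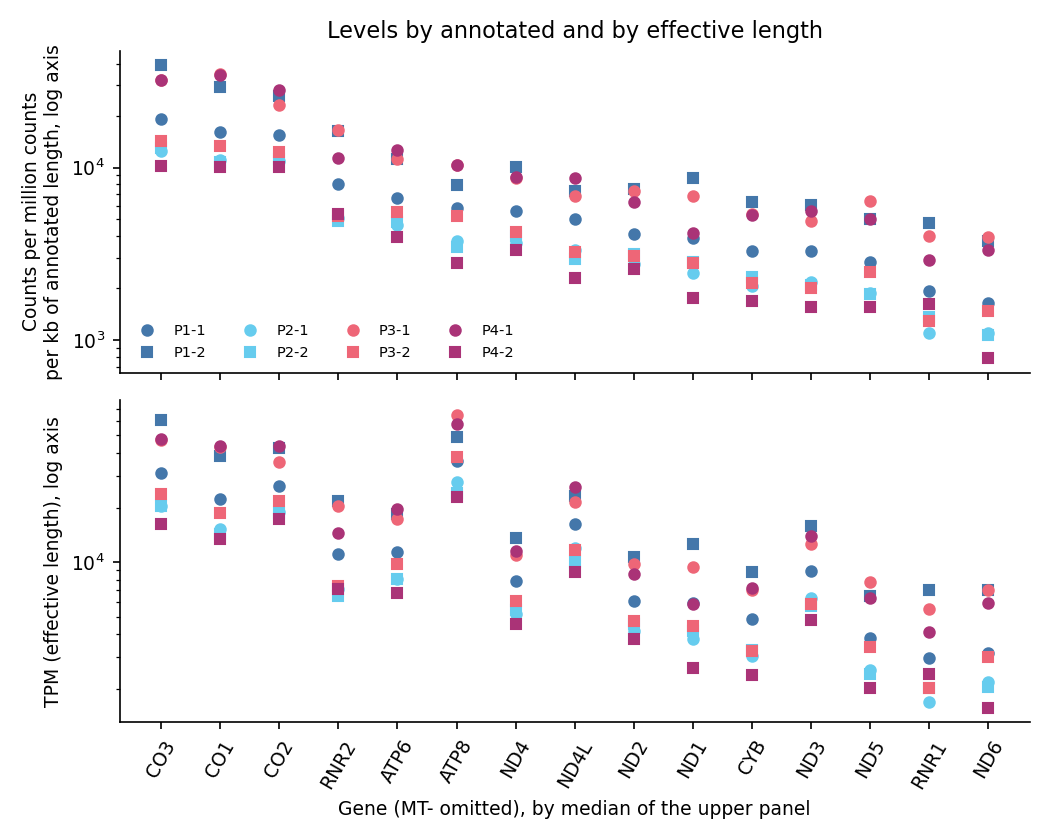
Levels of the 15 mRNAs and rRNAs in each sample as CPM of all counts per annotated kilobase (upper panel) and as TPM (lower panel), on log axes, with genes ordered by the median of the upper panel. MT-ATP8 has the highest TPM in 7 of 8 samples and ranks from 5 to 8 per annotated kilobase.

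Genes that share a transcript were set side by side on both length scales. MT-ATP8 and MT-ATP6 are translated from the same mRNA and overlap by 46 bases (chrM:8527-8572). MT-ND4L and MT-ND4 likewise share an mRNA and overlap by 7 bases (chrM:10760-10766), shown 5′ to 3′ with the start codon of MT-ND4 in capitals.
MT-ND4L and MT-ND4: ATGctaa

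The TPM of MT-ATP8 was 2.67 to 3.87 times that of MT-ATP6, whereas per annotated kilobase the ratio was 0.703 to 0.948. MT-ND4L was at 1.70 to 2.31 times MT-ND4 by TPM and at 0.685 to 0.983 times per annotated kilobase. MT-ATP8 alone made up 14.6% to 23.1% of the mitochondrial TPM but 0.889% to 1.44% of the mitochondrial counts. By TPM the mitochondrial genes held 11.7% to 33.6% of the total, against 5.89% to 18.5% by counts. For the pairs that share an mRNA, the ratio thus changed sides of 1 with the length used, in all 8 samples.

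The tRNAs were close to the limit of detection. They carry no long poly(A) tail, and RSEM gave all 22 an effective length of 0 and a TPM of 0 in every sample. Their expected counts summed to 820 over the 8 samples, and 762 of these, or 92.9%, were on the 8 tRNAs of the minus strand. All 8 minus-strand tRNAs had counts, whereas 10 of the 14 plus-strand tRNAs were at 0 throughout. A count of 0 allows up to 3 counts in a sample, or 0.0787 to 0.112 CPM, an upper limit that covers counting error only.

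MT-TA, the alanine tRNA of the minus strand, held 515 of the tRNA counts (62.8%). Its gene is at chrM:5587-5655, between MT-ND2 and MT-CO1, and is given 5′ to 3′ because it carried most of the tRNA signal.
MT-TA: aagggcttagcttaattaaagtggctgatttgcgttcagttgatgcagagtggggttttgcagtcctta

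MT-TA had 54 and 130 expected counts for P1, 33 and 7 for P2, 97 and 22 for P3, and 158 and 14 for P4. Its counts were highest in the 3 samples with the highest mitochondrial shares. MT-TN, the asparagine tRNA, had 18, 37, 9, 2, 26, 3, 9 and 6 counts in the same order, and MT-TQ, the glutamine tRNA, 10, 10, 5, 6, 8, 5, 11 and 6. MT-TF, the phenylalanine tRNA and the only plus-strand tRNA with more than a few counts, had 7, 17, 4, 2, 11, 2, 4 and 3. The other 8 tRNAs with counts had totals of 1 to 27 over the 8 samples and at most 9 in any sample. Without a stated use of the strand in counting, reads of a minus-strand tRNA cannot be told from reads of the uncut precursor opposite it.

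No member was called between early and late lines. A call required a log2 fold change beyond 1 in size and an FDR under 0.01, from edgeR's quasi-likelihood test and the Benjamini-Hochberg method across 19499 genes. Of the 37 members, 18 were tested, 9 had counts too low to test and 10 had none. The members tested largely moved together between the replicates of P1, P3 and P4 hESCs. Counts of them by sign or by p, here and in the comparisons below, are therefore not separate observations. In P3 and P4 against P1 and P2 hESCs, 0 of the 18 were called, where 2.2% of all genes were. At an unadjusted p under 0.05 the number was also 0, against 25.5% of all genes, and DESeq2 and limma called 0. Here and below limma was run on TPM, which was 0 for MT-TQ, MT-TA and MT-TN. It could therefore call only mRNAs and rRNAs. The log2 fold changes had a median of 0.25, against 0.01 over all genes tested, with 16 above 0 and 2 below. The median of the members tested fell to -0.09 without P3 replicate 1, to -0.0019 without P4 replicate 1, and to 0.06 and 0.07 without P2 replicate 1 or 2. It rose to 0.44 without P3 replicate 2, 0.50 without P4 replicate 2 and 0.76 without P1 replicate 2, with no call in any of these. The members furthest above 0 were MT-CO1 at 0.58 ± 0.50 (SE), MT-ATP8 at 0.56 ± 0.46, MT-ND5 at 0.54 ± 0.50 and MT-TA at 0.53 ± 0.85. MT-ND1 was at -0.09 ± 0.52 and MT-TN at -0.45 ± 0.81. The smallest adjusted p was 0.467 (edgeR's quasi-likelihood test), that of MT-ATP8.

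MT-CO1 is given in full as the most abundant member. Its CPM was 23833 and 48906 for P1, 15771 and 15343 for P2, 64684 and 19713 for P3, and 56341 and 14012 for P4. The lowest and the highest sample were both from late lines, and the groups overlapped. Leaving out P1 replicate 2 moved its log2 fold change to 1.08 and leaving out P3 replicate 1 to 0.21, without a call in either. Without P3 replicate 1, the difference in the mitochondrial share turned to -0.193 percentage points, and without P1 replicate 2 it was 4.56.

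Differences among the lines were not called either. In the test of any difference among the 4 lines, 0 of 18 members were called against 4.79% of all genes, with 0 at an unadjusted p under 0.05, against 31.5% of all genes, and a smallest adjusted p of 0.183 (edgeR's quasi-likelihood test), that of MT-ND1. DESeq2 and limma called 0 as well. Without single samples edgeR called 0 too, while the members at an unadjusted p under 0.05 numbered 16 of 19 without P4 replicate 1, 12 of 19 without P3 replicate 2, 11 of 20 without P4 replicate 2, 5 of 19 without P3 replicate 1, 2 of 20 without P1 replicate 1 and 0 in the other 3. Without the filter on low counts edgeR called 17 of 27 members, where 10.4% of all genes were called, as described with the dependence on processing.

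P2 hESCs held the lowest levels on average and had no high sample. The lowest mitochondrial share of a single sample was that of P4 replicate 2, at 5.89%, against 6.55% and 6.72% in P2 hESCs. In P2 against P1 hESCs all 18 members tested had a log2 fold change below 0. Their median was -1.28, against -0.01 over all genes. They ranged from -2.54 (MT-TN) to -1.04 (MT-TQ), both tRNAs with few counts. Among the mRNAs and rRNAs the range was -1.64 (MT-RNR1) to -1.09 (MT-CO2). None of the 18 was called, where 0% of all genes were, and 12 of 18 had an unadjusted p under 0.05, against 9.14% of all genes. Since the members largely move together, these 18 do not count as separate observations beside that percentage. Without P1 replicate 2, the high sample of P1 hESCs, the median was -0.66 and 0 of 18 members had an unadjusted p under 0.05, and without P1 replicate 1 they were -1.74 and 16 of 20. Without P2 replicate 1 or 2 the median was -1.26 or -1.28, with 2 members at an unadjusted p under 0.05 in each. Without any 1 sample of P3 or P4 hESCs, which enter this test through the shared spread, it was 18 of 19 or 18 of 20 members. DESeq2 called 0 of 18 and limma 0 of the 15 mRNAs and rRNAs, with 1 and at most 3 at an unadjusted p under 0.05. In contrast, edgeR without the filter on low counts called 16 of 27 (0.801% of all genes). MT-RNR1 was at 1776 and 4971 CPM in P1 hESCs and at 968 and 1196 in P2 hESCs, a log2 fold change of -1.64 ± 0.58 (SE; edgeR's quasi-likelihood test, adjusted p = 0.483). Both P2 samples lay below both P1 samples. MT-ND6 was at 827 and 2150 CPM in P1 hESCs and at 530 and 518 in P2 hESCs, a log2 fold change of -1.51 ± 0.66 (edgeR, adjusted p = 0.533).

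In P3 against P1 hESCs 0 of 18 members were called (3.93% of all genes), with a median log2 fold change of -0.18 and 5 above 0. In P4 against P1 hESCs 0 of 18 were called (2.11% of all genes), with a median of -0.40 and 1 above 0. Neither had a member at an unadjusted p under 0.05, against 29.5% and 21.5% of all genes, and DESeq2 and limma called 0 in both. Both medians changed sign without certain single samples. For P3 the median was -1.08 without P3 replicate 1, 0.37 without P3 replicate 2, -0.60 without P1 replicate 1 and 0.52 without P1 replicate 2. For P4 it was -1.55 without P4 replicate 1, 0.31 without P4 replicate 2, -0.83 without P1 replicate 1 and 0.22 without P1 replicate 2. No member was called in any of these, while 4 of 19 without P3 replicate 1 and 14 of 19 without P4 replicate 1 had an unadjusted p under 0.05. MT-ND1 was at 3624 and 9016 CPM in P1 hESCs and at 4235 and 1516 in P4 hESCs, which overlap, and its log2 fold change was -1.14 ± 0.55 (SE; edgeR's quasi-likelihood test, adjusted p = 0.252). Without the filter on low counts it was the 1 member called, at -1.08, where 3.5% of all genes were called. MT-CO1 was at -0.05 ± 0.59 in the same comparison. The comparisons with P1 hESCs share their control samples, which themselves differed 2.05-fold in the median mRNA or rRNA.

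Nuclear genes that make or break down mitochondrial RNA, or maintain mitochondrial DNA, were read from a list of 56, all of them tested. In P3 and P4 against P1 and P2 hESCs 0 of 56 were called (2.2% of all genes), with 36 above 0, 20 below and a median log2 fold change of 0.11, and 13 (23.2%) had an unadjusted p under 0.05, against 25.5% of all genes. DESeq2 and limma called 0. The genes with the smallest p were REXO2, an exonuclease for short RNA fragments in mitochondria, at 0.54 ± 0.15 (SE), ANGEL2, a relative of the deadenylases, at -0.50 ± 0.16, FASTKD5, needed for processing of precursors that no tRNA flanks, at 0.50 ± 0.17, PRORP, the nuclease of mitochondrial RNase P, at 0.45 ± 0.15, and MRPL12, a ribosomal protein of the organelle, at 0.54 ± 0.19. Their adjusted p ran from 0.0505 to 0.105 (edgeR's quasi-likelihood test).

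Nuclear copies of mitochondrial genes, old insertions of mitochondrial DNA in the chromosomes, can share reads with the members. By symbol 391 were found, of which 303 were at 0 in every sample and 4 reached 100 counts in any. Together they held 0.699% to 0.981% as many counts as the mitochondrial genes. MTATP6P1 (GRCh38, chr1:633696-634376) held 9421 to 36690 expected counts, 11.6% to 15.3% of those of MT-ATP6, to which it is 98.5% identical over 681 aligned bases. MTND2P28 held 2.25% to 2.92% of the counts of MT-ND2 and MTCO1P12 0.206% to 0.338% of those of MT-CO1. RSEM splits reads that fit both, so the values of MT-ATP6 and MTATP6P1 are uncertain by such an amount. Among the 11 copies tested in P3 and P4 against P1 and P2 hESCs, 0 were called (2.2% of all genes), with 5 above 0, 6 below and a median of -0.04. At an unadjusted p under 0.05 the number was 1, against 25.5% of all genes, and DESeq2 and limma called 0. The copies with the smallest p were MTCO3P29 at -1.63 ± 0.61 (SE), MTND4P15 at -1.02 ± 0.71, MTND5P1 at -0.48 ± 0.54, MTND1P23 at -0.67 ± 0.77 and MTCO1P12 at 0.37 ± 0.43. MTCO3P29, MTND4P15 and MTND5P1 had at most 14 counts in a sample.

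Of the RNAs without a poly(A) tail, 7 of 19 were tested. In P3 and P4 against P1 and P2 hESCs 0 were called (2.2% of all genes), and DESeq2 and limma called 0. At an unadjusted p under 0.05 the number was 0 as well (25.5% of all genes). Their median log2 fold change was 0.17, with 4 above 0 and 3 below. RNU1-1 and RNVU1-18, copies of a spliceosomal RNA, had identical values and cannot be told apart, at -1.98 ± 0.96 (SE). RMRP, the RNA of RNase MRP, was at 0.23 ± 0.50, RN7SL2 at 0.30 ± 0.70 and RN7SL1 at 0.26 ± 0.69. Single lines differed more, again with 0 called. Against P1 hESCs, the median log2 fold change was 1.97 in P2, 0.58 in P3 and 1.37 in P4 hESCs. An unadjusted p under 0.05 was seen for 5, 0 and 3 of the 7 (9.14%, 29.5% and 21.5% of all genes). For any difference among the lines it was 4 of 7 (31.5% of all genes). With RNU1-1 and RNVU1-18 identical, the 7 are not separate observations.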

How the data were processed

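RNA was sequenced from P1, P2, P3 and P4 hESCs, 2 samples each. The submitters' processing notes name FastQC, Trim Galore, STAR 2.7.3a, RSEM 1.3.3 and GRCh38. The annotation and the use of strand in counting are not given in the sources used here, and the deposited lengths of all 37 genes equalled those of GENCODE 29. The authors deposited an expected count per gene and sample, which RSEM estimates and which is not normalized, and a TPM derived from it by the authors through the effective length. Shares were computed from expected counts as deposited.

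Counts were rounded and tested with edgeR 4.0.16 in R 4.3.3 (TMM, filterByExpr by line, quasi-likelihood test, Benjamini-Hochberg adjustment over 19499 genes), with P3 and P4 against P1 and P2 in 2 groups of 4 samples and single lines in a model with 4 groups of 2. The thresholds followed the study, an FDR under 0.01 and an absolute log2 fold change above 1. The SE is the log2 fold change over the square root of F. Single shares were compared by exact permutation tests (Python 3.11.15). Alternatives were DESeq2 1.42.0, limma 3.58.1 on log2(TPM + 1) and log2(TPM + 0.1), DESeq2 size factors, scaling by nuclear genes, no filter, an FDR of 0.05 without a fold minimum, the replicate number as a block, shares of TPM, and leaving out each replicate. The fit was tested on simulated data.

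All 37 members were accounted for. Every mRNA and rRNA was named, each tRNA with at least 10 counts in at least 2 samples, and up to 5 genes of every other list by the smallest p. Other genes were matched by symbol, with 56558 identifiers matched. The members and lists were chosen with earlier results of these data known. Sequences and positions came from GENCODE release 29 on GRCh38.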

Additional observations from a re-analysis of the deposited data

Results flagged for a closer look

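For 90 groups of 4 samples (P1 with P2, or P3 with P4), the gap of the highest or lowest sample to its nearest neighbour was divided by the range of the group, and 6 were above Dixon's critical value for 4 samples. Chance flags about 1 in 20 such groups, or 4.5 here. MT-ND3 held 1.12% of the mitochondrial counts in P4 replicate 1 and 0.911% to 0.922% in the other 3 samples of P3 and P4 hESCs (gap 0.9495 of the range). MT-ND6 held 1.07% of the mitochondrial counts in P1 replicate 2 and 0.838% to 0.874% in the other 3 samples of P1 and P2 hESCs (gap 0.8392), and as a share of the mRNA counts it was at 1.27% against 0.967% to 1.02% (gap 0.8357). In P4 replicate 2, RN7SL1 was at 92.3 CPM of all counts against 10.7 to 16.0 in the other 3 samples of P3 and P4 hESCs (gap 0.9357), RN7SL2 at 84.8 against 10.7 to 16.4 (gap 0.9234), and SNORD3A, a nucleolar RNA, at 16.1 against 2.32 to 4.23 (gap 0.862). This is also the sample with the lowest mitochondrial share, and the cause was not tested.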

How the results depend on the processing

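No member was called under DESeq2, limma on TPM, DESeq2 size factors, scaling by nuclear genes, an FDR of 0.05 without a fold minimum, or without any single replicate. Without the filter on low counts, edgeR called 17 of 27 members for any difference among the lines, 16 in P2 against P1 hESCs and 1, MT-ND1 at -1.08, in P4 against P1 hESCs. That fit tested 34063 genes and called 10.4%, 0.801% and 3.5% of them in these comparisons. In it the prior degrees of freedom in the model of 4 groups were infinite, against 8.34 with the filter. Over all genes, the calls in P3 and P4 against P1 and P2 hESCs numbered 429, and 907 by DESeq2, 738 without the filter, 1470 at an FDR under 0.05 without a fold minimum and 242 on log2(TPM + 1). For any difference among the lines they numbered 934, and 2582 by DESeq2, 3533 without the filter and 347 on log2(TPM + 1). In P2 against P1 hESCs they numbered 0, and 40 by DESeq2 and 273 without the filter. The replicate numbers did not pair the samples (correlations of -0.0901 to 0.138 between lines), and with the replicate block 0 members were called, while MT-CYB turned to -0.0419 and MT-ND3 to -0.0816 on the log2 scale. With the block, the mitochondrial share still differed by 1.85 percentage points (exact permutation test, p = 0.889). On log2(TPM + 1) MT-CYB was at -0.0346 and MT-ND3 at -0.0173, and on log2(TPM + 0.1) at -0.0346 and -0.0173. The tRNAs, at a TPM of 0, gave no value there. The cause of these turns was not tested.

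Leaving out single replicates turned the sign of several differences between P3 and P4 and P1 and P2 hESCs, none of them past its threshold. The mitochondrial share ranged from -0.193 to 4.56 percentage points, the rRNA share from -1.03 to 0.618 percentage points, the tRNAs from -5.97 to 2.26 counts per 1000000 mitochondrial counts, the ratio of MT-RNR2 to MT-RNR1 from -0.526 to 0.166, and the MT-ND6 share from -0.0141 to 0.155 percentage points. The log2 fold change ranged from -0.0184 to 1.13 for MT-ND6, -0.19 to 0.70 for MT-CYB, -0.13 to 0.73 for MT-ND2, -0.15 to 0.68 for MT-ND3, -0.0867 to 0.70 for MT-ND4, -0.0508 to 0.68 for MT-ND4L, -0.64 to 0.56 for MT-ND1 and -0.15 to 0.78 for MT-CO3. It ranged from -0.25 to 0.88 for MT-RNR2, -0.26 to 0.96 for MT-RNR1, -0.16 to 0.33 for MT-TQ, -0.25 to 1.49 for MT-TA and -1.29 to 0.42 for MT-TN. Outside the members the ranges were -1.16 to 0.35 for MTND1P23, -0.0408 to 0.84 for MTCO1P12, -0.79 to 1.07 for RN7SL2, -0.88 to 0.98 for RN7SL1 and -0.0752 to 0.79 for RMRP. For the mRNAs and rRNAs of these ranges the upper end was without P1 replicate 2, and the lower end without P3 or P4 replicate 1. With 2 samples a line, the single sample left in a line is assumed to vary like the others.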
